A study of Mus musculus with 6 samples.

Results

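The genes described here are Krt5, Krt14 and Krt15, the keratins of basal epithelial cells, and all 3 members were found among 21911 protein-coding genes of the mouse annotation. They were taken by name, and their chromatin was read as cut sites, the positions where the transposase of the assay had cut open DNA. All 3 genes lie on the minus strand of GRCm38. Krt5 (ENSMUSG00000061527.7) spans chr15:101707070-101712898, Krt14 (ENSMUSG00000045545.8) spans chr11:100203162-100207548, and Krt15 (ENSMUSG00000054146.8) spans chr11:100131758-100135928. A promoter here is the stretch within 1000 bp of the 5′-most annotated start, in both directions. Distal tiles are the 500 bp tiles of the gene body and of 30 kb on each side whose centre is farther than 1000 bp from the 5′-most start of any protein-coding gene, and they number 118 for Krt5, 122 for Krt14 and 113 for Krt15.

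The study profiled sorted cells of the dorsal olfactory epithelium by single-cell ATAC-seq in 6 libraries, 3 from uninjured mice (treatment label control) and 3 from mice taken 24 h after an injury with methimazole, a drug that strips much of this epithelium. All mice of both groups carried the genotype labelled Krt5CreER; Rosa26LSL-YFP/LSL-YFP, in which a Cre driven from Krt5 marks cells with YFP, and YFP-positive, propidium iodide-negative cells labelled as horizontal basal cells were sorted. Mice of replicate 1 were 8 weeks old, those of replicate 2 were 6 weeks old and those of replicate 3 were 6 to 7 weeks old, in both groups. The labels call the replicates biological and say that the tissue of each animal was dissociated separately, but do not say how many animals entered a library or how the Krt5 driver was made. If the driver is a transgene with a copy of Krt5 regulatory sequence, cut sites in that copy could not be told from those of the Krt5 locus, in both groups alike, and this touches every Krt5 level and ratio given here. The sort therefore rests on 1 of the 3 genes in both groups.

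Keratin filaments are built from pairs of a type II and a type I keratin. Krt5 is the type II keratin of basal cells and Krt14 its usual type I partner, while Krt15 is another type I keratin of basal layers. In the olfactory epithelium, horizontal basal cells are the keratin-rich reserve stem cells attached to the basal lamina, which divide and differentiate after severe injury. Krt5 lies in the type II keratin cluster beside Krt6a and Krt6b, and Krt14 and Krt15 lie in the type I cluster with Krt13, Krt19, Krt9, Krt16 and Krt17.

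Printed here are the Krt5 promoter and the 200 bases with the most cut sites within 6 distal tiles that the results turn on. Each is printed 5′ to 3′ on the minus strand of the genes. Capitals mark matches, on either strand, to the letters of AP-1 (TGANTCA), TEAD (CATTCC), RUNX (ACCACA) and AP-2 (GCCNNNGGC), or to the p63 consensus element. The Krt5 promoter comes from the RefSeq promoter table (GRCm38.p6, chr15:101712906-101713155, intergenic), which matched Krt5 and a second start of Krt14, and the tiles were read from the GRCm38.p6 genome.
Krt5 promoter, p63 match in capitals: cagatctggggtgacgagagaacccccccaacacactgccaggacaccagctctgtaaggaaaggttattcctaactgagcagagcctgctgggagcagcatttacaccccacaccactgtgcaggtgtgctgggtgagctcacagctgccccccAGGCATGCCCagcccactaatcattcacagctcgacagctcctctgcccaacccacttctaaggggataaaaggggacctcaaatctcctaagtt
Krt5 +2148, chr15:101710625-101710824, in a Krt5 exon and the introns beside it, AP-2 match in capitals: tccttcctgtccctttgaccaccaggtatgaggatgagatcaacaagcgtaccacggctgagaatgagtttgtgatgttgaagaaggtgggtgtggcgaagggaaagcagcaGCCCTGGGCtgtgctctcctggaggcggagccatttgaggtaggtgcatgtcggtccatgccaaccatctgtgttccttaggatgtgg
Krt5 +15148, chr15:101697508-101697707, intergenic, AP-1 match in capitals: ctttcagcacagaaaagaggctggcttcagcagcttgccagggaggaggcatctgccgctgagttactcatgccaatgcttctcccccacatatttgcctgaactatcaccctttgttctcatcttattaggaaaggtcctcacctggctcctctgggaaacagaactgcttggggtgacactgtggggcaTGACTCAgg
Krt14 +1298, chr11:100206047-100206246, in a Krt14 intron, TEAD match in capitals: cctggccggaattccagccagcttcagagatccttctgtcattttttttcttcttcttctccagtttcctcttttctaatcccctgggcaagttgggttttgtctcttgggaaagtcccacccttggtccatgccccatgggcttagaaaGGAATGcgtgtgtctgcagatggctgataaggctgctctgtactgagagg
Krt14 +8798, chr11:100198784-100198983, intergenic, AP-1 matches in capitals: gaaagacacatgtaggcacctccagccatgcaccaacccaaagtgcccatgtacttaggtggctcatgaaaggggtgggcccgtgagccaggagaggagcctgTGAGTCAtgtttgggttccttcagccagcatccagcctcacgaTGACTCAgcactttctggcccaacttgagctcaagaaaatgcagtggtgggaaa
Krt15 -3822, chr11:100139515-100139714, intergenic, AP-2, TEAD and RUNX matches in capitals, in that order: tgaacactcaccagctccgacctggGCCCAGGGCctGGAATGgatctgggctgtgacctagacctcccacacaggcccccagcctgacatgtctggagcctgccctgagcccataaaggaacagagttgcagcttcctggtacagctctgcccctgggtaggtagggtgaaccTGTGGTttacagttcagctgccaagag
Krt15 +22178, chr11:100113636-100113835, intergenic, AP-1 match in capitals: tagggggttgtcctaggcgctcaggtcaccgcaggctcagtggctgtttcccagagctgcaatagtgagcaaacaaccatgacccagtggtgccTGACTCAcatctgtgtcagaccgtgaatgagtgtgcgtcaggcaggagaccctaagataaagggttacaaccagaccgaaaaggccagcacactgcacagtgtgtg
The number after a gene is the distance in bp from its start to the centre of the tile, positive downstream. Of words of 50 bases, 90.2% in the Krt5 promoter, 90.7% in the Krt14 promoter and 99.4% in the Krt15 promoter occur once in the genome, so a small part of the first 2 windows has no unique place in the genome, and where the other copies lie was not tested.

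Barcodes with at least 2000 fragments numbered 420 to 1338 per library and 4476 in all, with 14825320 to 44875242 cut sites per library. The share of barcodes in clusters called horizontal basal cell-like (HBC-like), from markers that left out the 3 keratins, was 72.7, 65.4 and 25.4% in the uninjured libraries (replicate 1, 2 and 3) and 74.4, 60.0 and 20.9% in the injured ones, so both replicate 3 libraries stand apart from their groups. In each HBC-like cluster all 8 of these markers were more open than in the other clusters, and the same held in the unnamed clusters 3 and 5. Of all barcodes, 2474 were HBC-like, 312 like neuronal precursors, 183 like olfactory sensory neurons and 106 sustentacular-like, while 1401 lay in clusters left unnamed (17.4 to 55.8% of an uninjured and 20.4 to 50.9% of an injured library). A cluster took a list's name where the markers averaged a log2 of at least 0.5 over the other clusters. This average also had to be at least 0.2 above the next list, and the top genes could not hold more markers of another list. A cluster above 0.5 at the HBC markers and also at gland, respiratory, sustentacular or microvillar markers was left unnamed. Mesenchymal and vascular markers were not part of this last rule. Cluster 2 was named HBC-like with 0.51 on that list (5 of 6 markers above the other clusters), against 0.74 for the HBC markers. Cluster 3 was left unnamed for its openness at respiratory markers (0.59, against 0.83 for the HBC markers) and held 8.37, 8.55 and 2.07% of the uninjured and 17.2, 18.3 and 31.0% of the injured barcodes. With it counted, the HBC-like share would be 81.1, 73.9 and 27.5% before and 91.6, 78.3 and 51.9% after injury. Clusters 5 and 7, also unnamed, had values of 0.72 and 0.61 at the HBC markers. Cluster 5 held 6.83, 5.51 and 24.2% of the uninjured and 1.42, 1.67 and 9.65% of the injured barcodes. Cluster 7 held 0, 0.67 and 26.6% and 0.37, 0 and 1.34%, so the low HBC-like share of replicate 3 depends on the naming. Sustentacular-like barcodes, the supporting cells of this epithelium, numbered 5, 68 and 32 in the uninjured and 0, 0 and 1 in the injured libraries, and their part in sums over all barcodes was not tested. The promoter, distal and tile results of the 3 genes are also given over HBC-like barcodes alone. Of the HBC-like clusters, 1 and 12 held mostly uninjured and clusters 2 and 4 mostly injured barcodes. Fragments with the same barcode and ends were shared by libraries of replicates 1 and 2 of both groups, and by the replicate 3 libraries of both groups, while a pair of libraries across these 2 sets shared at most 3 such fragments. These 2 sets of libraries are named by their sharing alone, the pair with most sharing, replicate 3 of both groups, had 725825 fragments in common (4.50% of the uninjured and 3.99% of the injured library), and 53 barcode names occurred in more than 1 library. Values are given as scaled CPM, the cut sites of a window as a share of its library on the usual CPM scale, with TMM scaling. In sums over all barcodes, fewer open cells and less opening per cell cannot be told apart.

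After injury, none of the 3 promoters passed the test over all promoters. The Krt5 promoter held 36.7, 29.4 and 22.2 scaled CPM in the uninjured libraries and 31.5, 29.4 and 19.9 in the injured ones, with replicates 1 to 3 in that order throughout. The groups overlapped, with replicate 3 lowest in each, and the log2 change was -0.12 ± 0.23 (SE, n = 3 per group, edgeR quasi-likelihood adjusted p = 0.805). The Krt14 promoter held 31.6, 25.1 and 19.98 scaled CPM before and 38.2, 35.9 and 25.6 after injury. Each injured library exceeded the uninjured library of the same number, but by the rule used here these numbers do not pair the libraries. The groups overlapped (log2 change 0.39 ± 0.20, edgeR adjusted p = 0.293). Krt15 had the least open promoter of the 3 in windows of equal length, with 8.65, 6.04 and 7.53 scaled CPM before and 5.82, 5.46 and 4.20 after injury. All injured values lay below all uninjured ones, as in 14.3% of promoters tested, and the log2 change was -0.52 ± 0.22 (edgeR adjusted p = 0.186). In uninjured replicate 3, 190 of the 265 Krt15 promoter cut sites came from the unnamed cluster 7. This cluster held 167 barcodes of that library and 10 of injured replicate 3, and its part in the Krt15 change was not tested.

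Thus 0 of the 3 promoters were called by edgeR at an adjusted p of 0.05, against 3.91% of 17140 promoters (2.21% higher and 1.71% lower), 1 of them (Krt15) had an unadjusted p under 0.05, and DESeq2 called 0. The 95% interval of the log2 change, taken from the same test without adjustment, ran from -0.65 to 0.42 for Krt5, from -0.062 to 0.85 for Krt14 and from -0.98 to -0.048 for Krt15. With a term for the sets of libraries that share fragments, added after the data were seen, the Krt14 promoter was called (0.39, edgeR adjusted p = 0.0127). In simulated data with the spread of these libraries, 58.0% of promoters changed by a log2 of 0.5 were called. The changed promoters were drawn at random from all those tested. Their share does not give the power for the 3 members, whose SEs were 0.23, 0.20 and 0.22.

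Over HBC-like barcodes alone and with TMM scaling, the Krt5 promoter fell and the Krt14 promoter rose. The Krt5 call held under the other 2 scalings and the Krt14 call did not, while the change relative to the median promoter differed by at most 0.01 between the 3 scalings for both. Krt5 had 52.6, 40.4 and 48.4 scaled CPM in the uninjured and 38.5, 37.4 and 38.1 in the injured libraries (log2 -0.30 ± 0.11, edgeR adjusted p = 0.0344). Krt14 had 40.3, 33.7 and 25.6 before and 47.1, 41.3 and 41.9 after injury (log2 0.37 ± 0.11, edgeR adjusted p = 0.0114). Neither pair of groups overlapped with TMM, as for 18.6% of promoters in the higher and 17.3% in the lower direction. With library size alone, chosen here after the data were seen, the Krt14 promoter of HBC-like barcodes held 45.0, 36.5 and 29.1 CPM before and 41.4, 39.1 and 36.7 after injury, with overlap (log2 0.071, edgeR adjusted p = 0.636), and with 10 kb bins its change was -0.019 (0.913). The Krt5 change was -0.60 and -0.69 under these 2 scalings (edgeR adjusted p = 4.62e-06 and 2.32e-06). Relative to the median promoter, which stood at -0.0077, -0.31 and -0.39 under TMM, library size and 10 kb bins, the change was 0.38, 0.38 and 0.37 for Krt14 and -0.29, -0.30 and -0.30 for Krt5. For Krt15 the values were 11.6, 8.69 and 4.75 before and 6.62, 7.09 and 6.87 after injury, with overlap (log2 -0.34, edgeR adjusted p = 0.322). With library size and 10 kb bins the Krt15 promoter was called lower (-0.63 and -0.73, edgeR adjusted p = 0.0184 and 0.00730), and relative to the median promoter it stood at -0.33, -0.33 and -0.34 under the 3 scalings. Here 2 of 3 members were called, 1 in each direction, against 21.2% of 14806 promoters (11.8% higher and 9.45% lower). With TMM 55.5% of the promoter calls were higher, with the other 2 scalings 12.2 and 9.31%. Clusters 1 and 12 supply most of the uninjured and clusters 2 and 4 most of the injured HBC-like barcodes. In uninjured replicate 2, 72 barcodes of cluster 12 gave 448 of 908 Krt5 and 450 of 756 Krt14 promoter cut sites. The median barcode of cluster 12 had 64281 fragments, against 8014 in cluster 1. The part of cluster 12 in these changes was not tested.

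The distal tiles gave the opposite signs for Krt5 and Krt14. Summed over the Krt5 locus they held 73.0, 69.0 and 54.0 scaled CPM before and 115.7, 104.9 and 65.2 after injury. Injured replicate 3 lay within the uninjured range, and the log2 change was 0.55 ± 0.20 (edgeR adjusted p = 0.105). Around Krt14 the sums were 96.5, 80.5 and 75.1 before and 75.0, 63.7 and 66.9 after injury, so all injured values were lower, as for 16.3% of genes (log2 -0.29 ± 0.12, edgeR adjusted p = 0.160). For Krt15 they were 89.0, 71.4 and 105.0 before and 81.6, 73.3 and 80.9 after injury, with full overlap (log2 -0.17 ± 0.14, edgeR adjusted p = 0.458). By edgeR 0 of 3 members were called, against 7.57% of 21420 genes (3.26% higher and 4.31% lower), although 2 had an unadjusted p under 0.05 and DESeq2 called 1 (Krt5, log2 0.54, adjusted p = 0.0498). The Krt5 distal sum was called by edgeR without injured replicate 3 (log2 0.75, adjusted p = 0.0135) and with the term for library sets (0.52, adjusted p = 0.0113).

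In HBC-like barcodes the Krt5 distal tiles rose from 90.5, 89.6 and 73.3 to 141.7, 154.1 and 130.9 scaled CPM (log2 0.74 ± 0.11, edgeR adjusted p = 0.000212). Those of Krt14 fell from 122.7, 106.9 and 105.5 to 84.4, 73.8 and 94.8 (log2 -0.41 ± 0.11, edgeR adjusted p = 0.0127). Neither pair of groups overlapped, as for 24.2% of genes in the higher and 23.8% in the lower direction, while the Krt15 sums did (log2 0.051, edgeR adjusted p = 0.744). With library size alone and with 10 kb bins the Krt5 change was 0.90 and 0.82 (edgeR adjusted p = 4.21e-05 and 0.000699), while the Krt14 change, -0.25 and -0.33, was no longer called (0.109 and 0.0721). The share of distal calls that were higher was 47.6, 69.6 and 60.4% under the 3 scalings. The 2 calls among 3 members stand against 34.5% of 21149 genes called (16.4% higher and 18.1% lower).

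**Figure D1:**
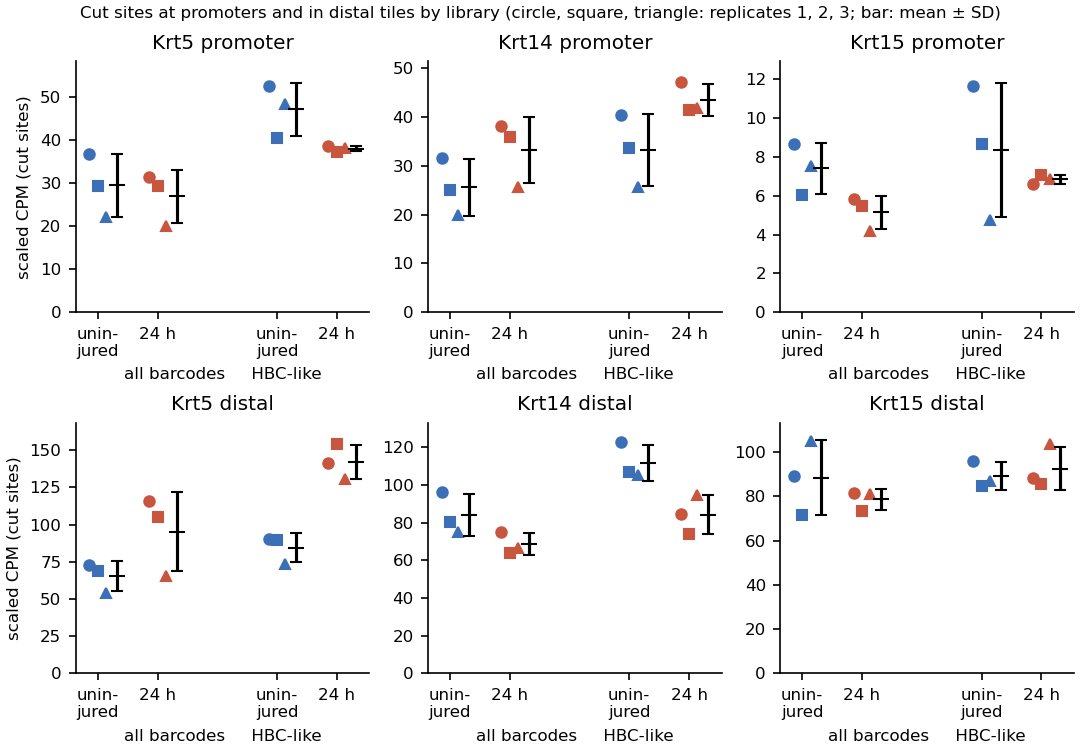
Scaled CPM of cut sites at the promoter (upper panels) and in the distal tiles (lower panels) of Krt5, Krt14 and Krt15 in each library, over all kept barcodes and over HBC-like barcodes. Circles, squares and triangles are replicates 1, 2 and 3, bars are the mean ± SD of 3 libraries, and injured Krt5 distal values of 115.7, 104.9 and 65.2 sit beside uninjured values of 73.0, 69.0 and 54.0.

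The direct question of whether a promoter changed differently from the distal tiles of the same gene was tested within libraries. The distal tiles of Krt5 include tiles of the Krt6a gene body, which are described below. For Krt5 the promoter change was lower than the distal change by a log2 of -0.68 ± 0.14 (edgeR adjusted p = 0.0328), which passed the threshold. For Krt14 the difference had the opposite sign, 0.63 ± 0.16 (edgeR adjusted p = 0.0602), and for Krt15 it was -0.40 ± 0.18 (edgeR adjusted p = 0.244). The call of 1 of 3 members stands beside 3.48% of 17136 genes called (2.12% higher and 1.35% lower). The Krt5 call was lost on leaving out uninjured replicate 1 (-0.59, adjusted p = 0.137), uninjured replicate 2 (-0.71, 0.101), injured replicate 1 (-0.63, 0.153) or injured replicate 2 (-0.64, 0.147), while the sign stayed negative in all 6 fits. With a promoter window of 500 bp the Krt5 difference was -0.25 (edgeR adjusted p = 0.313). The call was kept with flanks of 10 kb, which end short of Krt6a.

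In HBC-like barcodes the difference was -1.07 ± 0.16 for Krt5 (edgeR adjusted p = 0.000142), 0.78 ± 0.16 for Krt14 (0.00202) and -0.39 for Krt15 (0.206). With library size alone it was -1.50 for Krt5 (edgeR adjusted p = 3.18e-06), 0.34 for Krt14 (0.112) and -0.82 for Krt15 (0.00869), and 768 of 6398 calls were then higher, against 2187 of 4183 with TMM. With TMM 2 of 3 members were called, beside 28.3% of 14791 genes (14.8% higher and 13.5% lower). Over all barcodes, the Krt14 difference passed without injured replicate 3 (0.78, edgeR adjusted p = 0.0193). In the share of all cut sites of a locus that lay in its own promoter window, the Krt5 promoter took 33.8, 29.8 and 28.1% before and 16.2, 16.5 and 19.4% after injury. The cut sites of the Krt5 locus include those of Krt6a. For Krt14 the share was 27.7, 25.5 and 23.2% before and 30.3, 32.1 and 26.5% after. For Krt15 it was 10.1, 8.46 and 7.48% before and 5.51, 5.68 and 4.53% after. The groups did not overlap for Krt5 and Krt15, where all injured values were lower, as for 33.6% of 17140 genes. With 3 libraries per group an exact two-sided permutation test cannot go below 0.1, and the adjusted values over 9 such measures were 0.3 for both and 0.45 for Krt14. These shares depended on the window. Their mean changed by -13.2, 4.18 and -3.46 points for Krt5, Krt14 and Krt15, and by -5.55, 4.08 and -1.85 with the 500 bp window.

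The values also moved with the scaling. Cut sites in open tiles made up 75.6 to 79.5% of the uninjured and 66.8 to 74.6% of the injured libraries. With TMM the median promoter changed by a log2 of 0.0026, with library size alone by -0.28, and with factors from 10 kb bins by -0.54. Relative to that median, the Krt5 promoter stood at -0.12, -0.14 and -0.16 under the 3 scalings in that order, Krt14 at 0.39, 0.37 and 0.35, and Krt15 at -0.52, -0.53 and -0.55. In absolute terms the Krt15 promoter was called lower with library size alone (-0.81, edgeR adjusted p = 0.00916). The Krt14 change turned to -0.19 with the 10 kb bins (edgeR adjusted p = 0.352), and the Krt5 and Krt15 promoters were called lower there (-0.70, adjusted p = 0.000256, and -1.09, adjusted p = 0.000331). The share of promoter calls that were higher was 56.3% with TMM, 5.95% with library size and 2.69% with 10 kb bins. For distal sums it was 43.1, 77.7 and 17.0%, for open tiles 81.4, 64.5 and 40.0%, and for the difference of promoter and distal change 61.1, 7.30 and 7.29%. The Krt5 difference relative to the median of all genes was -0.71 under each of the 3 scalings, and that of Krt14 was 0.60.

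A ratio of cut sites between 2 promoters in 1 library needs no scaling, and these ratios were chosen after the values were seen. Krt14 promoter cut sites per Krt5 promoter cut site were 0.861, 0.854 and 0.899 in the uninjured and 1.21, 1.22 and 1.28 in the injured libraries. Their means, 0.871 ± 0.0243 and 1.24 ± 0.0374 (SD, n = 3 each), differed 1.42-fold (p = 0.1 by an exact permutation test, which can give no smaller value here, and 0.15 adjusted over 6 ratios), and leaving out each library in turn gave differences of means between 0.347 and 0.383. All 3 injured libraries lay above all uninjured ones, and replicate 3, with its low HBC-like share, was the highest of each group. Of all promoters set against Krt5 in this way, 8.17% had higher, non-overlapping injured values. In HBC-like barcodes the ratio was 0.766, 0.833 and 0.528 before and 1.22, 1.11 and 1.10 after injury.

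The ratio of Krt15 to Krt14 did not overlap between the groups either, with 0.273, 0.240 and 0.377 before and 0.152, 0.152 and 0.164 after injury (exact permutation p = 0.1, 0.15 adjusted over 6). Of 17139 promoters set against Krt14 in this way, 1881 had lower, non-overlapping injured values. That of Krt15 to Krt5 was 0.235, 0.205 and 0.339 before and 0.185, 0.186 and 0.211 after injury, with overlap (exact permutation p = 0.2). In both ratios, uninjured replicate 3 was the highest library and includes the 190 Krt15 cut sites of cluster 7. Within HBC-like barcodes the Krt15 to Krt5 ratio was 0.221, 0.215 and 0.0981 before and 0.172, 0.1898 and 0.1802 after injury, with overlap (exact permutation p = 1). Uninjured replicate 3, with 26 cut sites at the Krt15 promoter, had the lowest ratio, and the other 2 uninjured libraries lay above all injured ones. Within the sets of libraries that share fragments, the log2 change of the Krt14 promoter was 0.39 in replicates 1 and 2 and 0.36 in replicate 3. For the Krt5 promoter it was -0.12 and -0.16, for the Krt15 promoter -0.38 and -0.84, and for the Krt5 distal sum 0.64 and 0.27. The second set holds 1 library per group and gives no test.

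**Figure D2:**
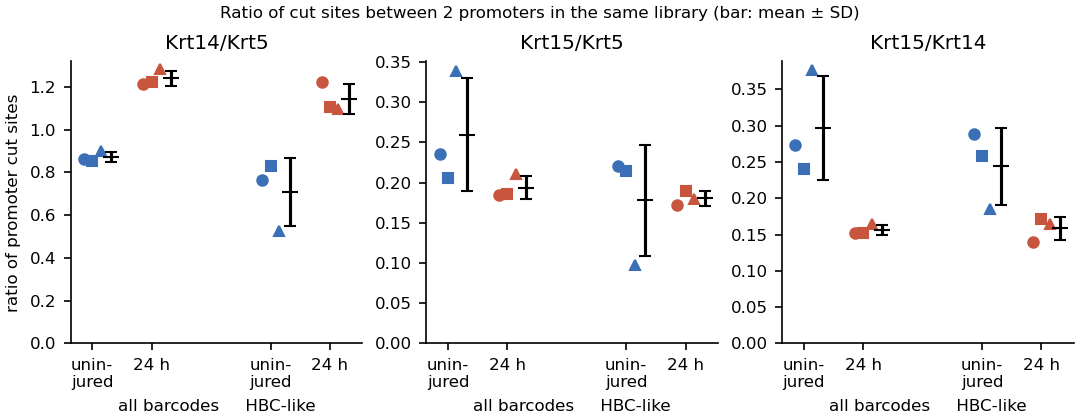
Ratio of promoter cut sites between 2 of the 3 keratin genes in each library, uninjured (blue) and 24 h after injury (red), over all kept and over HBC-like barcodes, with the mean ± SD of 3 libraries. The Krt14 to Krt5 ratio lies at 0.854 to 0.899 in the uninjured and at 1.21 to 1.28 in the injured libraries.

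The profile in 50 bp bins showed where around each start the cut sites lay, and the windows named here were chosen after it was seen and carry no test. Krt5 had a peak at its start and a higher one near 1 kb upstream, with the highest bin of the group means from 1050 to 1000 bp upstream, so that the edge of the promoter window runs through this peak. The upstream Krt5 peak (1200 to 800 bp upstream) held 24.4, 18.0 and 15.1 scaled CPM before and 17.3, 13.6 and 11.1 after injury. The peak at the Krt5 start (300 bp on each side) held 16.2, 13.9 and 9.86 before and 16.7, 16.0 and 10.0 after. Inside the promoter window, the bin from 1000 to 950 bp upstream held 3.80 before and 3.74 after injury on average, while each bin from 950 to 600 bp upstream was lower after injury, for example 1.47 against 0.494 from 850 to 800 bp and 0.681 against 0.171 from 650 to 600 bp. With the 500 bp window the Krt5 promoter change was 0.14 (edgeR adjusted p = 0.790).

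Krt14 cut sites at the start were highest from 250 to 200 bp upstream and again from 100 to 50 bp upstream in the group means, with lower bins between. The stretch of 300 bp on each side of the start held 18.3, 14.2 and 10.7 scaled CPM before and 25.3, 21.4 and 15.3 after injury. Another stretch of Krt14 cut sites lay 1000 to 1500 bp downstream, up to the edge of the profile and next to a second annotated start of Krt14 at 1518 bp, with 14.3, 13.2 and 6.94 before and 5.32, 4.48 and 6.04 after injury. Around that second start in a window of 1000 bp on each side, the log2 change was -0.40 ± 0.14 (edgeR adjusted p = 0.113), the opposite sign to the first start. At the Krt15 start the peak held 3.12, 3.17 and 4.04 before and 3.29, 3.02 and 2.04 after injury. Between 1000 and 1500 bp downstream, Krt15 held 1.38, 0.992 and 0.710 before and 0.228, 0.292 and 0.403 after.

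**Figure D3:**
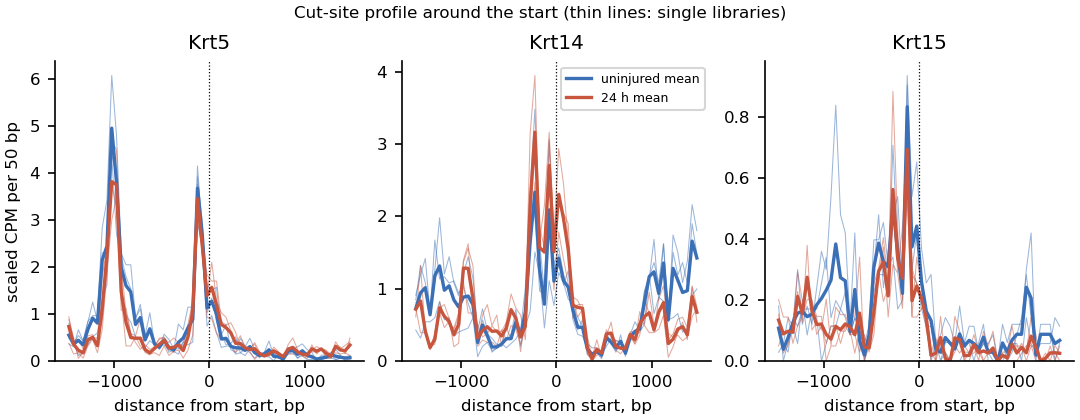
Scaled CPM of cut sites per 50 bp against the distance from the start of Krt5, Krt14 and Krt15 in bp (negative is upstream), with thin lines for single libraries and thick lines for the means of the uninjured (blue) and injured (red) groups. The Krt5 maximum lies near 1 kb upstream, and the Krt14 cut sites at the start and from 1 to 1.5 kb downstream differ in opposite directions between the groups.

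Single tiles showed which distal stretches carried the changes. In the Krt5 locus 51 distal tiles were tested, 10 rose and 0 fell by edgeR (3 had a lower value at an unadjusted p under 0.05), with a median log2 change of 1.29 over the tested tiles, while 6.73% of 406452 open tiles in the genome were called (5.48% higher and 1.26% lower). Of these, the tiles at +22648 and +20148 reached the minimum for an open tile (0.230 CPM) only through the injured libraries, and of the 44 distal tiles that reached it in each group 8 rose and 0 fell (median 1.17). Of the 10, 5 lay downstream, 3 in the gene body and 2 upstream. The tile at +2148, in a Krt5 exon, held 2.83, 2.83 and 1.98 scaled CPM before and 9.87, 7.98 and 4.27 after injury (log2 1.54 ± 0.30, edgeR adjusted p = 0.0125). At +6148, just past the gene, the values were 0.378, 0.795 and 0.989 before and 5.08, 3.71 and 2.76 after (log2 2.35 ± 0.38, edgeR adjusted p = 0.00534). At +15148, between Krt5 and Krt6a, they were 2.27, 1.97 and 1.72 before and 5.61, 6.32 and 5.22 after (log2 1.53 ± 0.23, edgeR adjusted p = 0.00384). The groups overlapped in none of these 3 tiles, and over the genome 15.6% of open tiles had higher and 9.72% lower, non-overlapping injured values.

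Krt6a, a keratin of stressed and wounded epithelium, starts within the Krt5 window, and its own gene body gave other called tiles. The tile at +20148, in a Krt6a exon, had 0 cut sites in each uninjured library and 25, 18 and 12 in the injured ones. It was tested only because of its injured counts, so no test is given. All 3 tested tiles near the Krt6a start, which are not among the distal tiles, also rose. When tiles near other starts were kept in the sum, the Krt5 distal change was 0.80 (edgeR adjusted p = 0.0319). By side, the tiles were summed and the sums averaged over the libraries of a group. The 10 gene body tiles of Krt5 together held 9.22 scaled CPM before and 21.7 after injury. The 52 downstream tiles together held 24.7 and 35.5, and the 56 upstream tiles 31.4 and 38.1.

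Upstream of Krt5 the tiles nearest to the start differed in sign. The most open tile of the promoter, at -852, held 25.6, 18.6 and 15.2 before and 16.0, 13.1 and 11.1 after injury (log2 -0.55 ± 0.19, edgeR adjusted p = 0.120), and it was called without uninjured replicate 3 (-0.72, adjusted p = 0.0396). The tile at -1352 held 9.32, 9.04 and 4.80 before and 8.34, 6.37 and 3.29 after (log2 -0.36 ± 0.33, edgeR adjusted p = 0.658). The tile at -1852, the most open distal tile of Krt5 by the mean over all 6 libraries though not in the uninjured ones, held 5.86, 6.19 and 3.84 before and 11.7, 9.89 and 5.02 after (log2 0.75 ± 0.29, edgeR adjusted p = 0.172), and it was called without injured replicate 3 (0.99, adjusted p = 0.00955). In HBC-like barcodes the changes of these 3 tiles were -0.83, -0.57 and 0.71, and all 3 passed (edgeR adjusted p = 2.08e-05, 0.00945 and 0.00183).

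The count of 10 called Krt5 distal tiles depended on single libraries. Leaving out uninjured replicate 1, 2 or 3 gave 3, 4 or 12 called tiles, and leaving out injured replicate 1, 2 or 3 gave 3, 1 or 19. Among the called Krt5 tiles with a test given here, that at +6148 passed in all 6 such fits (largest adjusted p 0.0495), while that at +15148 failed without injured replicate 2 (1.39, adjusted p = 0.0530). That at +2148 failed without replicate 1 or 2 of either group, with adjusted p of 0.0548 and 0.0709 (uninjured 1 and 2) and 0.0886 and 0.104 (injured 1 and 2). In HBC-like barcodes 25 Krt5 distal tiles rose and 5 fell of 33 tested, against 40.0% of 176654 open tiles called (24.8% higher and 15.2% lower). With 10 kb bins 22 rose and 5 fell, and 48.1% of all tile calls were higher, against 62.1% with TMM. Whether tiles reached the open minimum in each group was checked over all barcodes only. In HBC-like barcodes of any of the 3 loci, some tiles may have been tested only through the injured libraries.

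In the Krt14 locus 2 distal tiles rose and 1 fell of 28 tested, with a median log2 change of 0.11, beside the 6.73% of all open tiles called (5.48% higher and 1.26% lower). The tile that fell, at +1298, overlaps the second start of Krt14 and was its most open distal tile by the mean over all 6 libraries, with 13.7, 12.6 and 6.63 scaled CPM before and 4.98, 4.09 and 5.67 after injury (log2 -1.15 ± 0.25, edgeR adjusted p = 0.0203). The tile at +8798, downstream of Krt14 towards Krt9, rose from 1.83, 2.33 and 2.12 to 7.67, 5.51 and 3.38 (log2 1.39 ± 0.30, edgeR adjusted p = 0.0200). That at -8202, upstream, rose from 0.819, 0.678 and 0.145 to 3.79, 1.95 and 1.62 (log2 2.23 ± 0.56, edgeR adjusted p = 0.0373). None of these 3 pairs of groups overlapped.

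Each of these 3 Krt14 calls rested on single libraries. The count of 3 was 0 without uninjured replicate 1, uninjured replicate 2 or injured replicate 2 (4, 5 and 5 tiles at an unadjusted p under 0.05 by edgeR), 1 without injured replicate 1, and 3 without replicate 3 of either group. The adjusted p over the 6 fits ran from 0.00243 to 0.107 at +1298, from 0.00142 to 0.175 at +8798 and from 0.00999 to 0.214 at -8202, with the sign kept. With factors from 10 kb bins the tiles at +8798 and -8202 were at 0.93 and 1.79 and were not called (adjusted p = 0.0774 and 0.0754), and with library size that at -8202 was at 2.05 (0.0512). At -1202, just outside the Krt14 promoter window, the values were 12.9, 11.8 and 5.35 before and 6.33, 5.04 and 5.28 after injury (log2 -0.84 ± 0.28, edgeR adjusted p = 0.104). It was called without uninjured replicate 3 (-1.15, adjusted p = 0.00427) and in HBC-like barcodes (-1.41, adjusted p = 1.76e-07). At +7298 the groups overlapped (log2 -0.34 ± 0.29, adjusted p = 0.633). In HBC-like barcodes 5 Krt14 distal tiles rose and 4 fell of 22 tested, a share near the 40.0% of all open tiles called there.

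In the Krt15 locus 1 distal tile rose and 1 fell of 44 tested (median log2 change 0.20), beside the same 6.73% of all open tiles. The tile that fell, at -3822 between Krt15 and Krt19, held 13.5, 10.9 and 6.17 scaled CPM before and 5.15, 3.85 and 5.30 after injury (log2 -1.08 ± 0.26, edgeR adjusted p = 0.0305). The one that rose, at +22178, held 1.197, 0.501 and 2.21 before and 10.1, 7.84 and 4.13 after (log2 2.49 ± 0.47, edgeR adjusted p = 0.0102), and its nearest start is that of Krt13. The groups did not overlap in either. In HBC-like barcodes these tiles stood at -1.75 (edgeR adjusted p = 9.21e-09) and 4.88 (8.89e-13), and 9 Krt15 distal tiles rose and 2 fell of 24 tested, again near the 40.0% of all open tiles.

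The 2 calls became 0 without uninjured replicate 1 or injured replicate 2 (9 tiles each at an unadjusted p under 0.05 by edgeR), 1 without uninjured replicate 2, 2 without injured replicate 1, and 4 and 5 without replicate 3 of the uninjured and the injured group. At -3822 the adjusted p was 0.153, 0.109 and 0.133 without uninjured replicates 1 and 2 and injured replicate 2, and at +22178 it was 0.0597 and 0.0750 without uninjured replicate 1 and injured replicate 2. The most open distal tile by the mean over all 6 libraries, at -10322 in a Krt19 exon, held 8.44, 9.10 and 10.6 before and 14.04, 10.2 and 9.85 after injury (log2 0.27 ± 0.17, edgeR adjusted p = 0.447). The tile at -9322, also in Krt19, was at -0.13 ± 0.17 (adjusted p = 0.793), and that at +21678, beside the tile that rose, at 1.66 ± 0.50 (adjusted p = 0.0743). Most open chromatin assigned to the Krt15 window lay on its upstream side, towards Krt19, where the tiles held 71.1 of its mean scaled CPM before injury and 59.2 after, against 3.73 and 2.33 in the gene body and 13.6 and 17.02 on the downstream side.

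Among tiles inside the promoter windows, edgeR called 0 of 4 for Krt5, 0 of 4 for Krt14 and 0 of 3 for Krt15. At an unadjusted p under 0.05, 1 was lower for Krt5, 1 higher and 1 lower for Krt14, and 1 lower for Krt15. The most open ones of Krt14 and Krt15 changed by a log2 of 0.32 ± 0.24 (adjusted p = 0.563) and -0.35 ± 0.24 (adjusted p = 0.520).

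**Figure D4:**
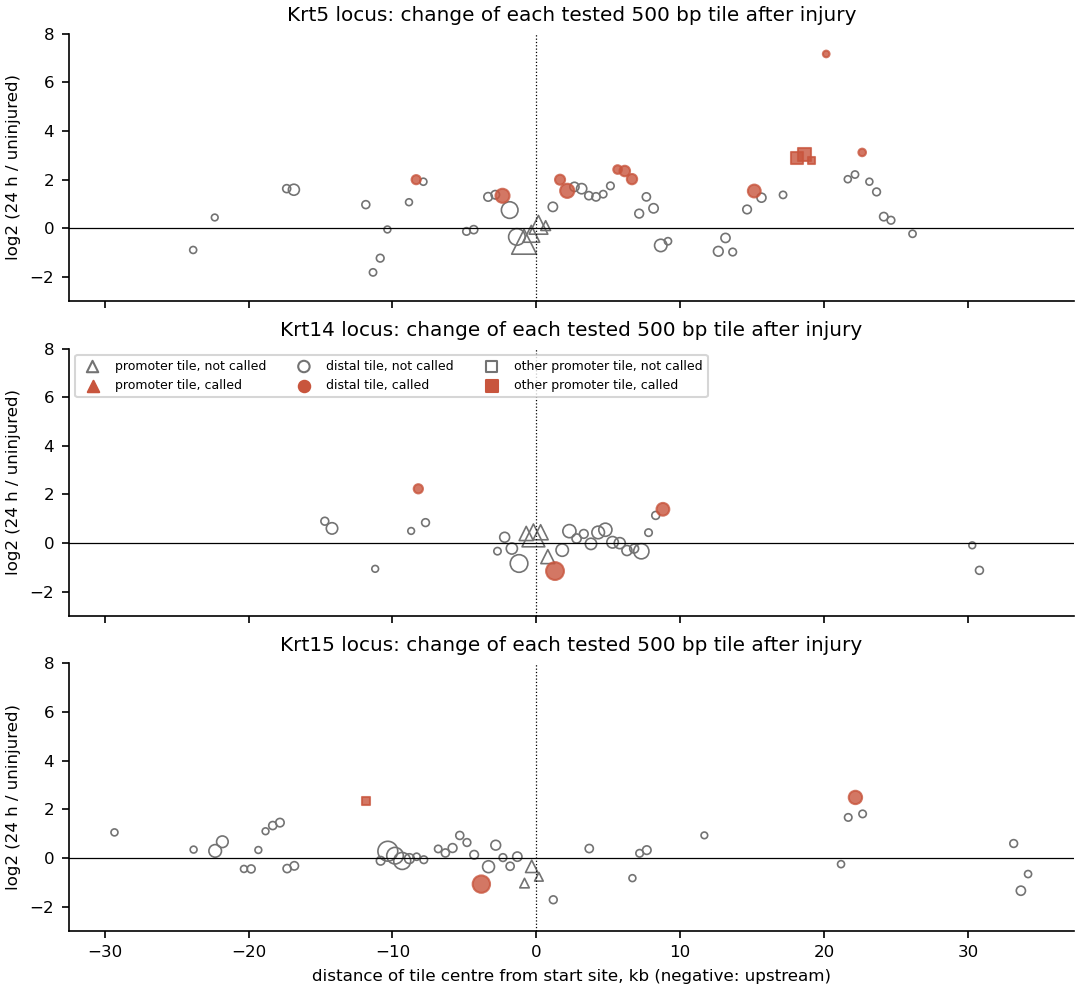
Log2 change after injury of each tested 500 bp tile against the distance of its centre from the start in kb, for the Krt5, Krt14 and Krt15 loci, with symbol area growing with the mean CPM and filled symbols for tiles with an adjusted p under 0.05. The 10 called distal tiles of Krt5 all lie above 0, and Krt14 and Krt15 have 2 and 1 above and 1 each below.

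The printed sequences show which motif letters these tiles hold. The AP-1 letters lie in the printed windows of Krt5 +15148, Krt14 +8798 (2 matches) and Krt15 +22178, which rose, and in neither of the printed windows that fell. The other printed window of a tile that rose, Krt5 +2148, holds none, although its whole tile has 1 match. The printed windows that fell, at Krt14 +1298 and Krt15 -3822, each hold the TEAD letters. Of all open tiles in the genome 25.9% held TEAD letters, with 29.5% of those that rose and 29.7% of those that fell. Of whole called tiles, those with an AP-1 match were 4 of 13 that rose in the Krt5 locus (including tiles near the Krt6a start), 2 of 2 for Krt14 and 2 of 2 for Krt15 (including the tile at -11822 near the Krt19 start, which is not among the distal tiles), and 0 of 1 that fell for both Krt14 and Krt15. The 13 include the Krt5 tiles at +22648 and +20148, which reached the minimum for an open tile only through the injured libraries and hold no AP-1 match. The Krt5 tile at +6148, called in all 6 fits that leave out 1 library and not printed, holds none either. Over the genome 19.8% of open tiles, 59.7% of tiles that rose and 7.41% of tiles that fell held an AP-1 match. In windows of 200 bases at the centre of all open tiles, AP-1 letters occurred in 8.50%, TEAD in 11.3%, RUNX in 15.1%, AP-2 in 5.69% and the p63 element in 7.46%. The p63 match of the Krt5 promoter compares with 7.13% of all promoter windows of 250 bases. TATAAA was searched as well and was not in the printed promoter window. None of the matches in the printed windows overlap each other.

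Other measures at the promoters gave the following values. Each barcode was thinned to 2000 fragments, and the share with a cut site in the Krt5 promoter was 13.9, 9.22 and 7.15% before and 6.35, 6.43 and 4.56% after injury. For Krt14 it was 8.59, 5.51 and 4.61% before and 7.77, 7.86 and 5.36% after. For Krt15 it was 2.64, 1.35 and 1.11% before and 1.42, 0.238 and 0.938% after, with as few as 1 barcode of 420 behind a value (Wilson 95% interval 0.042 to 1.34%). Thinning scales by library size, and none of the 3 passed an exact permutation test (p = 0.1, 0.8 and 0.3, and 0.3, 0.8 and 0.54 adjusted over 9). The Krt5 difference of means, -4.31 points, ran from -5.77 to -2.41 on leaving out each library and was -1.01 with the 500 bp window. That of Krt15, -0.84 points, ran from -1.13 to -0.37, and was -0.49 with that window. Unthinned, the Krt5 share was 41.6, 32.5 and 39.4% before and 36.0, 41.0 and 29.5% after injury. Intervals cover counting error only.

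The share of fragments under 100 bp at the Krt5 promoter was 42.7, 46.0 and 56.0% before and 42.8, 42.5 and 55.5% after injury, and was 30.5 to 36.3% and 29.3 to 36.7% at the Krt14 promoter. Over whole libraries it ran from 31.4 to 39.0%. The groups overlapped at all 3 promoters (exact permutation p of 0.6 to 0.8). In every library the Krt5 share was above the library-wide one, a difference that was not tested.

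The clusters of barcodes, formed without tiles of the 3 loci, gave the levels across cell types as a description with no test. Krt5 promoter CPM, here without TMM scaling, was highest in the HBC-like cluster 1 (53.8), followed by the HBC-like clusters 12 (41.2), 4 (40.0) and 2 (32.5). The unnamed clusters 3, 7 and 5, led by genes such as Reg3g, Depp1 and F2, followed with 28.1, 26.5 and 23.2. Clusters like neuronal precursors had 6.44 and 1.46, sustentacular-like cells 1.41 and cells like olfactory sensory neurons 0.275. Libraries with at least 30 barcodes ranged from 48.9 to 60.1 in cluster 1, from 39.5 to 42.3 in cluster 4 and from 31.2 to 34.3 in cluster 2, so these 3 ranges did not overlap, while cluster 3 ranged from 18.8 to 47.9 and could not be placed against its neighbours.

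In CPM without TMM scaling, Krt14 was open at nearly the same level in the HBC-like clusters and in cluster 3. It had 42.9 in cluster 4, 40.2 in cluster 12, 39.0 in cluster 3, 38.8 in cluster 2 and 37.2 in cluster 1. The library ranges of 37.3 to 47.3, 34.6 to 40.8 and 28.3 to 46.2 in clusters 4, 2 and 1 overlapped. Clusters 7 and 5 had 31.2 and 25.0. Precursor-like clusters had 9.72 and 2.07, neuron-like cells 0.413 and sustentacular-like cells 0.234. Clusters 1 and 12 are mostly uninjured and clusters 2 and 4 mostly injured. With library size alone the median promoter of HBC-like barcodes changed by a log2 of -0.31 after injury. Comparisons of Krt5 and Krt14 CPM between these clusters include that shift. Krt15 was highest in the unnamed cluster 7 (17.7), of which 167 of 188 barcodes came from uninjured replicate 3. It was followed by clusters 12 (10.3), 1 (9.43), 2 (6.78), 3 (6.05), 5 (5.31) and 4 (3.55), and no cut site was found in sustentacular-like cells. In cluster 1 the libraries ranged from 5.18 to 13.4 and in cluster 2 from 6.37 to 7.73, so these neighbours did not separate. Barcodes with fewer than 200 fragments, a measure of free DNA fragments and partial nuclei, carried 7.46 to 21.1 CPM at the Krt5 promoter, 3.07 to 27.5 at Krt14 and 3.78 to 10.5 at Krt15, and levels in neuron-like and sustentacular-like clusters lay below these. The Krt15 promoter level of the kept barcodes did not exceed that of these small barcodes in uninjured replicate 1 (9.71 against 10.1 CPM), injured replicate 2 (4.73 against 10.5) and injured replicate 3 (4.09 against 4.92), where the small barcodes held 7, 14 and 8 cut sites.

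**Figure D5:**
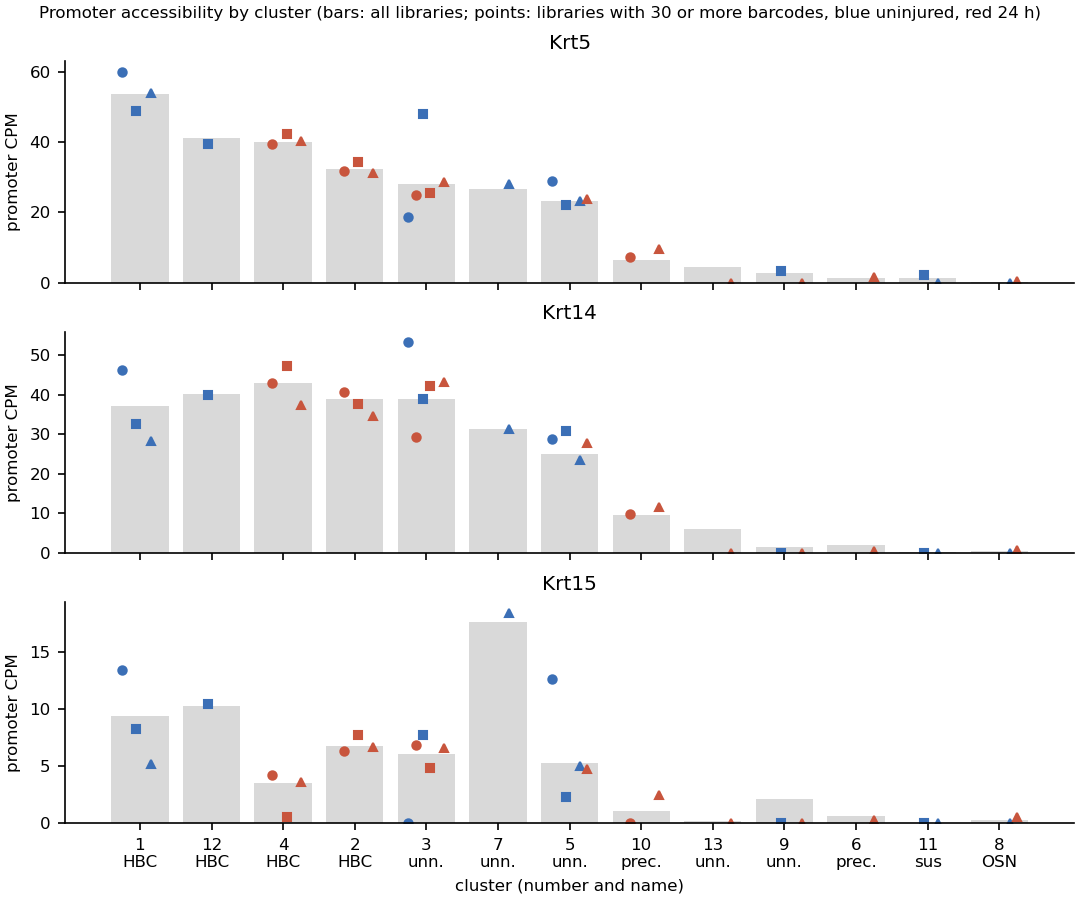
Promoter CPM of Krt5, Krt14 and Krt15 in each cluster, with bars for all libraries together and points for libraries with at least 30 barcodes (blue uninjured, red 24 h after injury; circle, square and triangle for replicates 1, 2 and 3), clusters ordered by Krt5. Krt5 falls from 53.8 in cluster 1 to 0.275 in neuron-like cells, Krt14 stays at 37.2 to 42.9 in the HBC-like clusters, and Krt15 is highest in cluster 7 (17.7).

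Over 30 sums of a cluster in a library, which share libraries and depth, the promoters most like Krt5 in log2(CPM + 1) among 12238 genes were Psapl1 (Pearson r = 0.972), Pkp1 (0.970), which encodes a desmosomal plaque protein, Arhgef4 (0.967), Krt14 (0.957) and Krt17 (0.951). For Krt14 they were Krt17 (0.977), Psapl1 (0.967), Urah, Afap1l1 and Iqgap1 (0.960 for the last). Krt15 had weaker matches, Rflna (0.816), Pycard, Klhl35, Phf11d and Krt5 (0.804). These correlations are descriptions and carry no p.

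Other genes of the keratin filament system gave the setting. Of 11 type II keratin promoters tested, edgeR called 0 (2 had an unadjusted p under 0.05, and DESeq2 called 2), with a median log2 change of 0.40, against 0.0026 over all promoters. This median is the value of Krt75, a nearly closed promoter with a mean of 0.99 scaled CPM (0.40 ± 0.69, edgeR adjusted p = 0.771). Krt1, Krt4, Krt6b, Krt76, Krt77 and Krt79 had means of 0.34 to 0.85, so the median does not describe open promoters. Krt6a, beside Krt5, was at 2.96 ± 0.63 (edgeR adjusted p = 0.0545) and was called without uninjured replicate 3 (4.13, adjusted p = 0.0013). It was also called with library size alone (2.66, edgeR adjusted p = 0.0286), with 10 kb bins (2.39, edgeR adjusted p = 4.38e-06) and by DESeq2 (3.04, adjusted p = 0.00444). Of 7 type I keratins, 2 rose and 1 fell (median -0.02), beside the 3.91% of all promoters called. Krt16, a keratin of wounded epithelium, rose by 3.68 ± 0.53 (edgeR adjusted p = 0.0202), and Krt19, a keratin of simple epithelia, by 1.68 ± 0.43 (0.0433). The Krt19 promoter window was nearly closed, with means of 0.60 scaled CPM before and 1.90 after injury. The more open tiles in Krt19, at -10322 and -9322 from the Krt15 start, were not called. The Krt16 call was lost with the term for library sets (3.53, edgeR adjusted p = 0.0632) and that of Krt19 with 10 kb bins (1.12, 0.0501). Krt23 fell by 0.60 ± 0.10 (edgeR adjusted p = 0.00847). In HBC-like barcodes 2 of 4 type II keratins tested rose, Krt6a (5.14, edgeR adjusted p = 9.15e-30) and Krt80 (2.45, 7.45e-22), and of 5 type I keratins Krt16 (4.78) and Krt19 (2.07) rose and Krt23 (-0.89) fell, beside the 11.8% of promoters called higher and 9.45% called lower there. These 5 keratins passed with the same sign under the other 2 scalings. The low-count filter left only 4 type II and 5 type I keratins to test in HBC-like barcodes. Whether Krt6a, Krt16 and Krt19 passed it only through their injured counts was not checked. Their uninjured means over all barcodes were 1.81, 1.59 and 0.60 scaled CPM.

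Of 25 genes of basal adhesion and its control, 1 rose and 2 fell (median 0.07), beside 2.21% of all promoters called higher and 1.71% lower. The gene that rose was Dsg3, a desmosomal cadherin (3.06 ± 0.44, edgeR adjusted p = 0.00676), and those that fell were the integrin gene Itgb1 (-0.39 ± 0.08, 0.0215) and the adhesion gene Icam1 (-0.68 ± 0.14, 0.0259). In HBC-like barcodes 3 of 23 rose (Dst, Tfap2c and Dsg3) and 2 fell (Itgb1 and Icam1), a share near the 21.2% of all promoters called there, and of the 11 linkers and regulators Evpl rose. With library size alone Dst, Tfap2c and Evpl were not called (0.38, 0.41 and 0.24, edgeR adjusted p = 0.106, 0.108 and 0.1396). Dsg3 had an uninjured mean of 1.18 scaled CPM over all barcodes. Whether it passed the low-count filter in HBC-like barcodes only through its injured counts was not checked. Over all barcodes, among the 11 genes of filament linkers and regulators edgeR called 0 promoters (2 at an unadjusted p under 0.05, DESeq2 0, median 0.02). In distal sums 0 keratins of either list were called, with 5 of 11 type II and 1 of 7 type I genes at an unadjusted p under 0.05 among those with a tested promoter, of which DESeq2 called 3 and 0. There Lama3 (0.71, edgeR adjusted p = 0.0259), Dsg3 (1.08, 0.0242) and Pnn (0.73, 0.0441) rose, and Icam1 (-0.76, 0.0189), Sox2 (-0.56, 0.0203) and Eppk1 (-0.50, 0.0260) fell, beside 7.57% of all genes called. Lama3 (0.55, edgeR adjusted p = 0.0512) and Pnn (0.57, 0.0756) were not called with 10 kb bins, nor Pnn (0.40, 0.261) and Eppk1 (-0.31, 0.219) with flanks of 10 kb, nor Pnn with tiles near other starts kept (0.47, 0.0648).

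Each of these list calls failed in at least 1 of the 6 fits that leave out 1 library. The largest adjusted p over those fits was 0.104 for the Krt16 promoter, 0.210 for Krt19, 0.0646 for Krt23, 0.0653 for Dsg3, 0.101 for Itgb1 and 0.107 for Icam1, with every sign kept. For the distal sums it was 0.113 for Lama3, 0.126 for Dsg3, 0.173 for Pnn, 0.111 for Icam1, 0.114 for Sox2 and 0.132 for Eppk1.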

How the data were processed

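Single-cell ATAC-seq (10x Genomics) was deposited for 6 libraries as fragment lists, which give the ends, barcode and read-pair count of each deduplicated fragment. The deposited count column was used for totals, and cut sites, both ends of each fragment, were counted anew. The submitters' processing notes name mm10 and Cell Ranger 2.0.0. The deposited peak matrices were not used here. Coordinates are 1-based on GRCm38 with the GENCODE annotation.

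Barcodes with at least 2000 fragments were summed per library, and doublets were kept with no caller run. Depth was 14825320 to 44875242 cut sites per library. Promoters, distal sums, their difference within libraries and 500 bp tiles at 5 times the median tile were each fitted over the genome with edgeR 4.0.16 in R 4.3.3 (quasi-likelihood, robust, TMM, filterByExpr), with Benjamini-Hochberg adjustment and a threshold of 0.05. SEs were derived from the log2 change and F. P-values measure the spread between these libraries. The test scripts were tested on simulated data. For single values per library, exact permutation tests (two-sided, scipy 1.17.1) were used. Clusters came from open tiles outside the 3 loci (TF-IDF, 30 components, 15 neighbours, Leiden resolution 0.5, scanpy 1.11.5) and were named from marker lists without the 3 keratins. A pseudocount of 1 CPM was used for the likeness ranking.

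The members, gene lists and tests were chosen with earlier results of these data known. Named are the members, list genes past 0.05 and Krt6a, and per locus the most open promoter tile, the 3 most open distal tiles and the 3 with the smallest p. Alternatives were barcode filters (5000 fragments, 20% in open tiles, HBC-like only), scaling, DESeq2 1.42.0, no low-count filter, window and flank sizes, a replicate block, and leaving out each library. Added after the data were seen were removal of fragments shared between libraries, a term for the sets that share them, the second starts, the promoter ratios, and the other 2 scalings in HBC-like barcodes.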

Additional observations from a re-analysis of the deposited data

How the results depend on the processing

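Features called by edgeR numbered 671 promoters, 1621 distal sums, 596 differences of promoter and distal change and 27370 open tiles. HBC-like barcodes gave 3142, 7302, 4183 and 70628, and 30, 9 and 11 called distal tiles in the Krt5, Krt14 and Krt15 loci, against 10, 3 and 2. Library size alone gave 7006 promoters and 3810 differences, and factors from 10 kb bins gave 10083 and 3830, with 4 Krt15 tiles. DESeq2 called 1098 promoters and 3074 distal sums. The added term for sets of libraries gave 1596 promoters, 3266 distal sums, 43007 tiles, and 18 and 5 tiles in the Krt5 and Krt15 loci.

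HBC-like barcodes were also fitted with library size alone and with 10 kb bins. These gave 7396 and 8085 promoters, 7374 and 6292 distal sums, 6398 and 6401 differences, 76265 and 78385 tiles, and 29 and 27 Krt5 tiles, with 9 Krt14 and 11 Krt15 tiles under both. Member values were -0.60 and -0.69 (Krt5 promoter), -0.63 and -0.73 (Krt15 promoter), 0.90 and 0.82 (Krt5 distal) and -0.82 under both (Krt15 difference), all of them called, and 0.21 and 0.13 (Krt15 distal, sign turned, not called). The Krt14 promoter was -0.019 with 10 kb bins, and the tile Krt15 -9322 was 0.12 and 0.030.

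Same-numbered libraries correlated at 0.0431, 0.169 and 0.1999 in their deviations from the group means. By the rule used here the numbers do not pair them, because the first of these values was too low. Injured replicate 1 correlated best with uninjured replicate 2 (0.087). Each uninjured library, however, correlated best with the injured library of its own number, and same-numbered mice had the same ages. These values do not settle whether the libraries are paired. The replicate block gave 1784 promoters, 3032 distal sums and 16 Krt5 tiles, and Krt14 promoter 0.38, Krt5 distal 0.51 and Krt14 difference 0.62 were then called.

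At promoters, Krt5 was -0.30 in HBC-like barcodes, -0.70 with 10 kb bins (both called) and 0.14 with the 500 bp window. Krt14 was 0.37 in HBC-like barcodes, -0.19 with 10 kb bins, 0.39 with the set term (called) and -0.40 at the second start, and Krt15 was -0.81 with library size and -1.09 with 10 kb bins (both called). In distal sums, Krt5 was 0.74 in HBC-like barcodes, 0.54 by DESeq2, 0.80 with tiles near other starts kept and 0.52 with the set term (all 4 called), Krt14 was -0.41 (called) and Krt15 0.051 in HBC-like barcodes, and Krt15 was -0.46 with 10 kb flanks, against -0.17. The difference for Krt14 was 0.78 in HBC-like barcodes, 0.72 with the 500 bp window and 0.72 with 10 kb flanks, for Krt15 it was -0.75 with library size and -0.75 with 10 kb bins (both called), and for Krt5 -0.25 with the 500 bp window. Signs turned for the tile Krt15 -9322 (0.27 in HBC-like barcodes), the most open Krt14 promoter tile (-0.15) and Krt15 -10322 (-0.17, both with 10 kb bins), for the short-fragment shares of Krt5 (0.38 points) and Krt15 (-0.63) and for the Krt15 to Krt5 ratio (0.0025) in HBC-like barcodes. The cause of these differences was not tested.

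Leaving out each library gave 100 to 1376 promoters, 0 to 3568 distal sums (the 0 without uninjured replicate 1 or injured replicate 2, with 3843 and 3684 at an unadjusted p under 0.05 by edgeR), 19 to 1042 differences, 5363 to 44643 tiles, and 1 to 19, 0 to 3 and 0 to 5 called tiles in the 3 loci. Member values ran from -0.30 to 0.069 (Krt5 promoter), 0.23 to 0.56 (Krt14 promoter), 0.38 to 0.75 (Krt5 distal), -0.38 to -0.18 (Krt14 distal), -0.30 without uninjured replicate 2 to -0.043 without uninjured replicate 3 (Krt15 distal), -0.74 to -0.59 (Krt5 difference) and 0.55 to 0.78 (Krt14 difference). The tiles Krt14 +7298 (-0.63 to 0.031), Krt15 -9322 (-0.30 to 0.0069) and Krt15 -10322 (-0.0185 to 0.37) turned sign, as did the short-fragment shares of Krt5 (-5.57 to 2.61 points), Krt14 (-2.99 to 0.74) and Krt15 (-0.68 to 4.30) and the thinned Krt14 share (-0.054 to 1.94). In simulated data with this depth and spread, 1.72% of tiles changed by a log2 of 1 and 29.8% changed by 2 were called. Few of the 365395 simulated tiles were changed, so the adjustment was stricter there than in these data, where 27370 tiles were called. The 2 shares therefore do not give the power of the tile test used here, and an uncalled tile is not shown to be unchanged.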
